A study of Mus musculus with 62 samples.

Results

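The ADAM genes code for membrane proteins with a metalloprotease domain and a disintegrin domain, and 33 of the 23845 genes in the expression table carry a symbol made of Adam, a number and at most 1 letter. The related Adamts genes, whose products are secreted, were not included. Several ADAM proteins are made in male germ cells, are cut while sperm pass through the epididymis and lie on the sperm surface, where in the mouse Adam2 and Adam3 are needed for sperm to pass the uterotubal junction and to bind the egg coat. Others, such as Adam10 and Adam17, are sheddases that release the outer part of membrane proteins in many cell types, and Adam11, Adam22 and Adam23 belong to a group known in nerve cells that binds LGI ligands and has no protease activity. The members were grouped by these known roles into 20 sperm, 2 epididymal (Adam7 and Adam28), 8 broad sheddase and 3 neural genes.

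Polyadenylated RNA was sequenced from the testis, the caput (the head of the epididymis, next to the testis) and the cauda (its tail, where sperm are stored) of adult male mice aged 8 to 14 weeks, with each of the 62 libraries made from the tissue of 1 animal. The groups were germ-free (GF) C57BL/6 mice raised without microbes in sterile isolators (4 testis, 6 caput and 6 cauda libraries), GF × SPF F1 sons of a GF father and an SPF mother raised in a conventional facility (3 caput and 3 cauda), Rag2-/- mice, which lack mature T and B cells (2 caput and 3 cauda), and specific pathogen-free (SPF) wild type C57BL/6 mice as their common controls (3 testis, 4 caput and 4 cauda). Recolonized GF mice (3 libraries a tissue) came from another laboratory. They descended from GF mice, were kept in conventional housing with microbes and had been bred there for generations. They were set against a second set of SPF mice (5 libraries a tissue). The study asked whether microbes affect the male tract, and GF cauda replicate 4, which was swollen, entered no comparison and is described at the end.

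Values are in TPM, a measure of transcript number scaled for gene length and for the total of the library, so that levels of different genes can be set side by side. The read depth of the libraries is unknown, and genes above 0 TPM numbered 16026 to 18822 in testis, 13747 to 17310 in caput and 13105 to 17742 in cauda. The defining markers followed the tissue labels, with the protamine gene Prm1 at 17249 to 27641 TPM in testis and at most 399 TPM elsewhere, and the caput gene Lcn8 at 14695 to 31629 TPM in caput and at most 87.2 TPM elsewhere. Rag2 was at 0 TPM in all caput and cauda libraries, controls included, so its deletion could not be checked.

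The zinc-binding site is what makes an ADAM protein a protease, and it was read from the coding sequences because the sperm and epididymal members divide by it. It spans 11 codons, of which 5 code for a histidine, a glutamate, a histidine, a glycine and a histidine. All 5 were present in 20 of the 33 members: 11 of the 20 sperm genes, 1 of the 2 epididymal genes (Adam28), 8 of the 8 broad sheddase genes and none of the 3 neural genes. The site is exonic and coding in each, and the stretches below show the epididymal pair, the most abundant sheddase gene and the sperm surface genes Adam2 and Adam3. Codons for these residues are in capitals and other codons in lower case (GENCODE M21 transcripts on GRCm38, 5′ to 3′ on the minus strand of each gene).
Adam28 (chr14:68633167-68633199): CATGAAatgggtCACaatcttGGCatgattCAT
Adam7 (chr14:68516614-68516646): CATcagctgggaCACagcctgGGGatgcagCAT
Adam15 (chr3:89344780-89344812): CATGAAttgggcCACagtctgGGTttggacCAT
Adam2 (chr14:66053841-66053873): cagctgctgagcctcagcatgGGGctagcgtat
Adam3 (chr8:24707418-24707450): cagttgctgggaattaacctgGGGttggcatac

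Adam7 kept 4 of the 5 residues, without the glutamate codon that catalysis needs, and Adam2 and Adam3 kept 1. Adam5, Adam18 and Adam32, further sperm genes, also kept 1. A single coding exon was found in 15 members, and all 15 were sperm genes. The members lay on 10 chromosomes, with 13 on chromosome 8 and 5 on chromosome 12. Some are near copies of each other, among them Adam25 and Adam39 with 96.1% identical coding bases, Adam6a and Adam6b with 94.9%, Adam26a and Adam26b with 94.2%, Adam20 and Adam25 with 90.2%, Adam26a and Adam34 with 89.6%, and Adam1a and Adam1b with 82.6%. RSEM divides shared reads between such copies, so the levels of these 10 genes are less certain than those of the others.

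The sperm and epididymal roles follow where these genes are known to be made. Their place along the tract is therefore a description. For all 20 sperm genes the lowest of the 15 testis libraries was above every caput and cauda library, a pattern that 23.4% of all genes in the table had. Adam28 was the only member whose lowest caput library was above every library of the other tissues (3.40% of all genes), and no member had this pattern in cauda (2.58% of all genes). At a median of at least 1 TPM, 28 members were present in testis, 8 in caput and 10 in cauda.

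**Figure D1:**
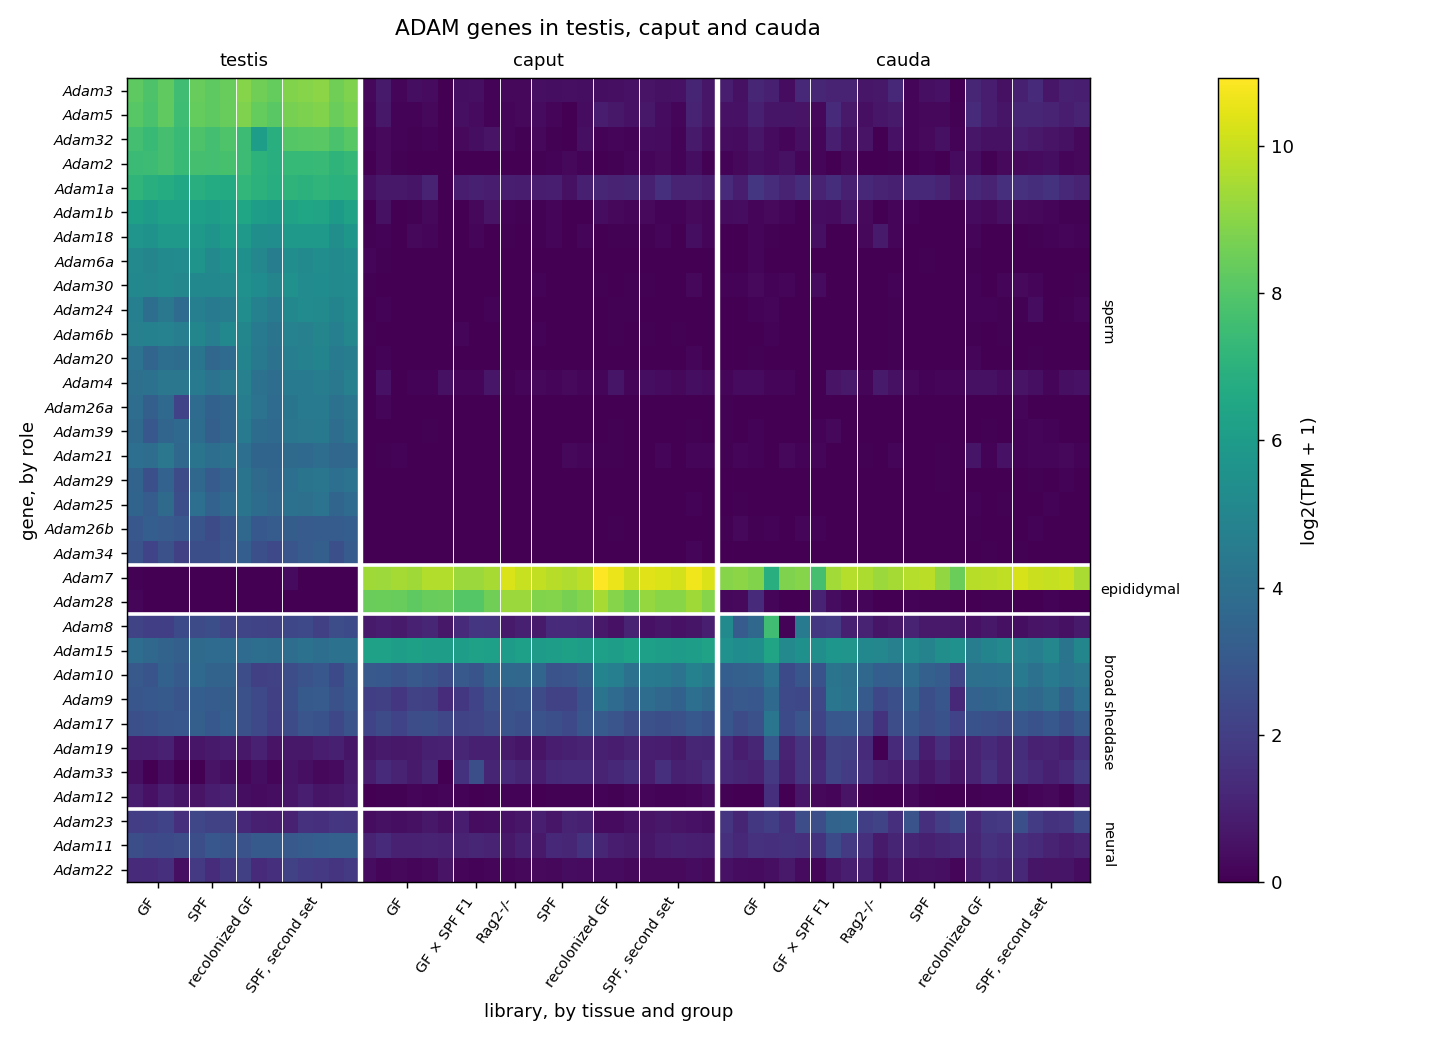
Level of each of the 33 ADAM genes (rows, by role) in each of the 62 libraries (columns, by tissue and group), as log2(TPM + 1) on a color scale. The 20 sperm genes are bright in testis alone, Adam28 in caput alone, and Adam7 in caput and cauda.

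Adam3, Adam5 and Adam32 were the most abundant members of SPF testis. Adam3, the sperm surface protein cyritestin, ranged from 188 to 514 TPM over the testis libraries with a median of 334 TPM, against a median of 0.34 TPM in caput and 0.865 TPM in cauda. Adam2, the beta subunit of the sperm protein fertilin, ranged from 118 to 212 TPM with a median of 166 TPM in testis, against 0.05 TPM in caput and 0.155 TPM in cauda. Adam34 was the sperm gene with the lowest testis median, 5.46 TPM. The sperm genes together added up to 1416 to 1604 TPM in SPF testis, against 1.32 to 2.36 TPM in SPF caput and 0.96 to 2.46 TPM in SPF cauda. In cauda this sum was 3.02 to 6.59 TPM in the 5 GF libraries compared. It was 3.97 to 6.08 TPM in F1 and 3.33 to 4.64 TPM in Rag2-/- mice. Every one of these libraries was above every library of the first SPF set. Of all genes tested singly, 6.60% were higher without overlap in GF, 22.0% in F1 and 3.75% in Rag2-/- cauda. Spermatid and sperm markers summed to 52.8 to 1787 TPM in first-set SPF cauda, so this reference was uneven. In recolonized GF cauda the sum of the sperm genes was 3.95 to 6.75 TPM. The second SPF set had 4.25 to 6.67 TPM, which overlapped with recolonized GF, GF, F1 and Rag2-/- cauda. The spermatid and sperm markers tested in cauda all had a positive log2 fold change in GF mice (16 of 16, median 1.87, 1 called), F1 mice (15 of 15, median 1.61, none called) and Rag2-/- mice (15 of 15, median 2.59, none called). Their part in the sum of the sperm genes was not tested. Over the 24 cauda libraries, this sum and the mean log2 level of 20 spermatid and sperm markers had a Pearson correlation of 0.748 and a Spearman correlation of 0.441, and over the 23 caput libraries of 0.693 and 0.616. These are descriptions over libraries of several groups, and both measures come from the same libraries.

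The epididymal genes had the reverse distribution. Adam7, whose protein is secreted by epididymal cells and taken up by sperm, was listed at 0 TPM in 13 of 15 testis libraries and at 0.26 TPM at most, against 615 to 1933 TPM in caput with a median of 896 TPM. In cauda it ranged from 118 to 1235 TPM with a median of 716 TPM. Adam28, known also in lymphocytes and able to cut proteins, was listed at 0 TPM in 14 of 15 testis libraries, against 264 to 727 TPM in caput with a median of 455 TPM, and it was at 0 to 1.53 TPM in cauda with a median of 0.05 TPM. Both genes were high in the caput, and Adam7 was also high in the cauda.

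In limma fits on log2(TPM + 1), with p-values adjusted over all genes tested and a call at an adjusted p of at most 0.05 with a fold of at least 1.5, 28 of 30 tested members were called between testis and caput of SPF mice (80.2% of all genes called), 25 of them higher (52.9%) and 3 lower (27.4%) in testis. The 3 lower members were Adam7, Adam15 and Adam28. In the second SPF set 29 of 30 were called (79.4%), 24 higher (47.2%) and 5 lower (32.1%). Between testis and cauda 26 of 30 were called (77.5%), 24 higher (51.0%) and 2 lower (26.5%), and in the second set 28 of 30 (78.7%), 23 higher (48.4%) and 5 lower (30.3%). Most of these members averaged under 1 TPM in one of the tissues compared and passed the filter on low values through the other, so these counts are a description. Between testis and caput this held for 24 of 30 members in SPF mice, Adam7 and Adam28 among them, and for 25 of 30 in the second set. Between testis and cauda it held for 23 of 30 in SPF mice and 22 of 30 in the second set. The median log2 fold change of all genes was 0.77 in SPF and 0.43 in the second set for testis over caput, and 0.69 and 0.50 for testis over cauda.

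Adam15, a widely expressed ADAM with an intact site, was the most abundant broad sheddase gene in every tissue. It had 12.9, 12.99 and 13.1 TPM in SPF testis, against 63.0, 68.6, 71.8 and 68.6 TPM in SPF caput and 35.6, 28.4, 41.3 and 44.3 TPM in SPF cauda, and the 3 tissues did not overlap. The log2 fold change of testis over caput was -2.30 ± 0.08 (SE, limma adjusted p = 4.1e-09) and that of testis over cauda -1.44 ± 0.16 (adjusted p = 5.99e-05). In the second SPF set they were -2.10 ± 0.07 (adjusted p = 4.38e-12) and -0.73 ± 0.15 (adjusted p = 0.000394).

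Between cauda and caput, 3 of 11 tested members were called in SPF mice (39.4% of all genes) and the same 3 of 11 in the second set (50.3%). In each set 1 was higher in cauda (21.1% of all genes in SPF mice and 23.9% in the second set) and 2 were lower (18.4% and 26.4%). Adam23 and Adam28 averaged under 1 TPM in one of the regions in both sets and passed the filter through the other, so their values are given as a description. Adam28 had 0.08, 0.06, 0.04 and 0 TPM in SPF cauda, against 455, 469, 406 and 471 TPM in SPF caput, and at most 0.07 TPM in cauda of the second set, against at least 492 TPM in its caput. Adam15 fell in cauda, by 0.86 ± 0.15 on the log2 scale in SPF mice (adjusted p = 0.00119) and by 1.36 ± 0.15 in the second set (adjusted p = 4.57e-06). Adam23, a neural member chosen for description after its values were seen, had 5.95, 1.75, 3.00 and 4.31 TPM in SPF cauda, against 0.87, 0.58, 1.11 and 0.95 TPM in SPF caput. In the second set it had 5.35, 2.77, 2.06, 2.11 and 4.37 TPM in cauda, against 0.47, 0.61, 0.50, 0.43 and 0.31 TPM in caput. The regions did not overlap for any of the 3 genes in either set (47.2% of all genes in SPF mice and 60.0% in the second set). Adam7 was lower in cauda by a log2 difference of -0.49 ± 0.27 (adjusted p = 0.164) in SPF mice and -0.42 ± 0.14 (adjusted p = 0.0187) in the second set, under the fold threshold in both.

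Adam9 and Adam10 differed between the SPF sets. Both cut membrane proteins, and Adam10 is the main sheddase of Notch receptors. Adam10 had 4.93, 5.84, 6.78, 4.55 and 7.41 TPM in testis of the second SPF set, against 22.1, 20.4, 16.9, 27.2 and 21.2 TPM in its caput. In the first set it had 12.2, 10.1 and 10.2 TPM in testis, against 10.6, 5.91, 6.33 and 8.28 TPM in caput. Testis and caput of the second set were far apart, and those of the first set overlapped. The log2 fold change of testis over caput was -1.71 ± 0.14 in the second set (adjusted p = 5.13e-08) and 0.45 ± 0.18 in the first (adjusted p = 0.0374, under the fold threshold). For Adam9, chosen after its values were seen, it was -0.79 ± 0.13 (adjusted p = 6.54e-05) and 0.85 ± 0.17 (adjusted p = 0.000893). The difference between the sets was not tested, and set and batch cannot be told apart.

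**Figure D2:**
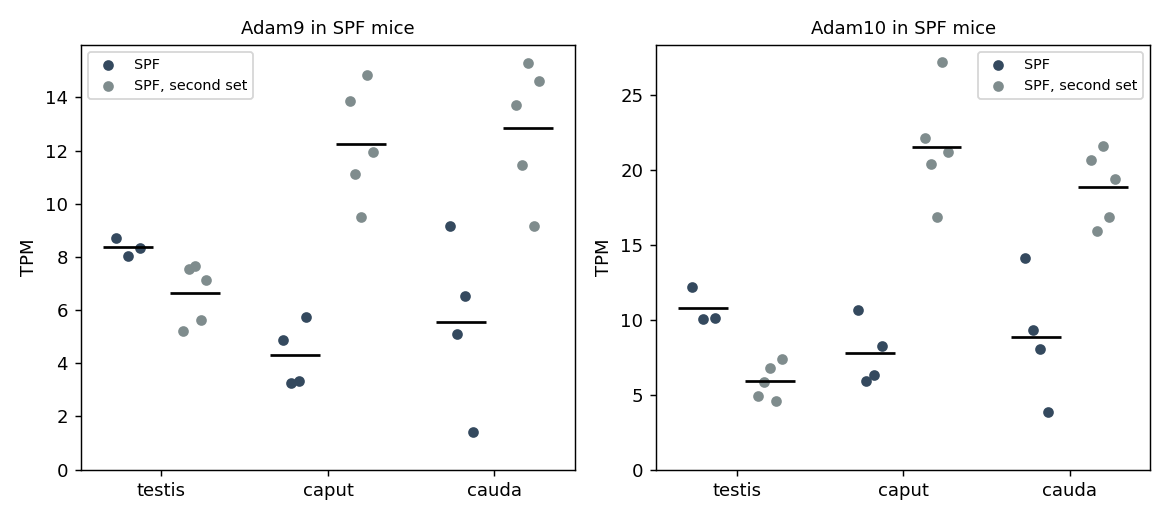
Adam9 and Adam10 levels in TPM in testis, caput and cauda of the first and the second set of SPF mice, with 1 point per library and a line at each group mean. In caput and cauda the means of the second set are higher than those of the first, and in testis they are lower.

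Set against the first SPF set, the second was higher without overlap for 12 of 28 members in testis (20.4% of all genes) and lower for 6 (28.0%). In caput it was higher without overlap for 4 of 8 members, Adam7, Adam9, Adam10 and Adam28 (30.4%), and in cauda for 2 of 10, Adam9 and Adam10 (10.3%). Recolonized GF mice were therefore compared with the second set alone.

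GF testis was compared with SPF testis to ask whether ADAM transcript levels differ in the testis of mice without microbes. GF mice came from a gnotobiotic colony and SPF mice from purchased stock. Microbes and colony therefore cannot be told apart in the GF comparisons. None of the 28 tested members was called (0.0423% of all genes), and 7 had an unadjusted p under 0.05 (13.5% of all genes). The log2 fold change ran from -0.53 to 0.37 with a median of -0.26, against -0.10 over all genes. Adam3 had 295, 232, 300 and 188 TPM in GF testis, against 334, 295 and 333 TPM in SPF testis, a log2 fold change of -0.36 ± 0.17 (limma adjusted p = 0.392). Adam5 had 267, 216, 307 and 186 TPM in GF testis, against 326, 292 and 331 TPM in SPF testis (-0.40 ± 0.17, limma adjusted p = 0.369). Both genes had GF and SPF libraries that overlapped. Adam2 had 171, 176, 208 and 163 TPM in GF testis, against 207, 203 and 212 TPM in SPF testis (-0.21 ± 0.10, limma adjusted p = 0.394), and these overlapped as well. Groups did not overlap for 1 member that was higher in GF testis, Adam26b (2.16% of all genes), and for 4 that were lower, Adam9, Adam10, Adam11 and Adam17 (11.4% of all genes), and these were chosen after their values were seen. The lowest adjusted p of any member was 0.334. In the same libraries the 20 spermatid and sperm markers had a median log2 fold change of 0.05 (13 positive). The median was -0.37 for 8 spermatocyte markers (1 positive), -0.19 for 10 Sertoli cell markers (none positive) and -0.03 for 6 Leydig cell markers (3 positive). None of these markers was called. The part of these cells in the ADAM values was not tested. In bulk tissue, fewer cells of a type and less RNA per cell cannot be told apart.

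Adam32, a testis gene with 1 of the 5 zinc-site residues, was the only member called in any of the comparisons between groups of mice. It had 179, 68.2 and 118 TPM in recolonized GF testis, against 262, 268, 277, 217 and 269 TPM in testis of the second SPF set, and all 3 recolonized libraries were below all 5 SPF libraries (14.9% of all genes). It fell by 1.18 ± 0.25 on the log2 scale (limma adjusted p = 0.0412), and it was 1 of 28 tested members called lower (1.16% of all genes called lower, 1.28% in either direction). Of 13 alternative fits, 10 lost the call, with log2 fold changes from -1.51 to -0.82 and adjusted p from 0.0108 to 0.326. Without recolonized GF testis replicate 2, the lowest library, it was -0.82 (adjusted p = 0.0833), and the count of called members was 0 to 3 as each library was left out, with Adam9, Adam10 and Adam32 called without recolonized GF testis replicate 1, and Adam23 and Adam32 without second-set SPF testis replicate 1. In GF testis Adam32 had 199, 167, 205 and 169 TPM, against 236, 202 and 242 TPM in SPF testis (-0.29 ± 0.12, limma adjusted p = 0.355). In the comparisons of recolonized GF mice, source laboratory, colony and recolonization cannot be told apart.

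Of the 28 members tested in recolonized GF testis 5 had an unadjusted p under 0.05 (30.6% of all genes). The other sperm genes there had log2 fold changes from -0.29 to 0.09, against a median of -0.16 over all genes. Adam3 had 492, 372 and 322 TPM in recolonized GF testis, against 465, 485, 514, 378 and 451 TPM in the second SPF set (-0.23 ± 0.15, limma adjusted p = 0.295), and the groups overlapped. Adam2 had 179, 132 and 118 TPM in recolonized GF testis, against 158, 160, 166, 137 and 156 TPM in the second SPF set (-0.14 ± 0.13, limma adjusted p = 0.47). Adam5 had 443, 322 and 274 TPM, against 408, 436, 463, 343 and 411 TPM in the second SPF set (-0.27 ± 0.15, limma adjusted p = 0.246), and both genes overlapped as well. Adam9 (-0.53, adjusted p = 0.0777), Adam10 (-0.51, adjusted p = 0.0834) and Adam23 (-0.47, adjusted p = 0.0957) had the next lowest adjusted p-values, all above the threshold. In the same libraries 4 of 6 Leydig cell markers were called lower, with a summed level of 2282 to 3416 TPM in recolonized GF testis and 3806 to 5164 TPM in the second SPF set, while 20 spermatid and sperm markers had a median log2 fold change of 0.00 with none called. The 8 spermatocyte markers had a median of -0.39 (1 positive, none called), the 9 Sertoli cell markers tested -0.32 (none positive, 1 called lower), the 10 macrophage markers tested -0.57 (2 positive, none called) and the 6 fibroblast markers tested -0.47 (none positive, 1 called lower). The part of these cells in the Adam32 value was not tested.

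**Figure D3:**
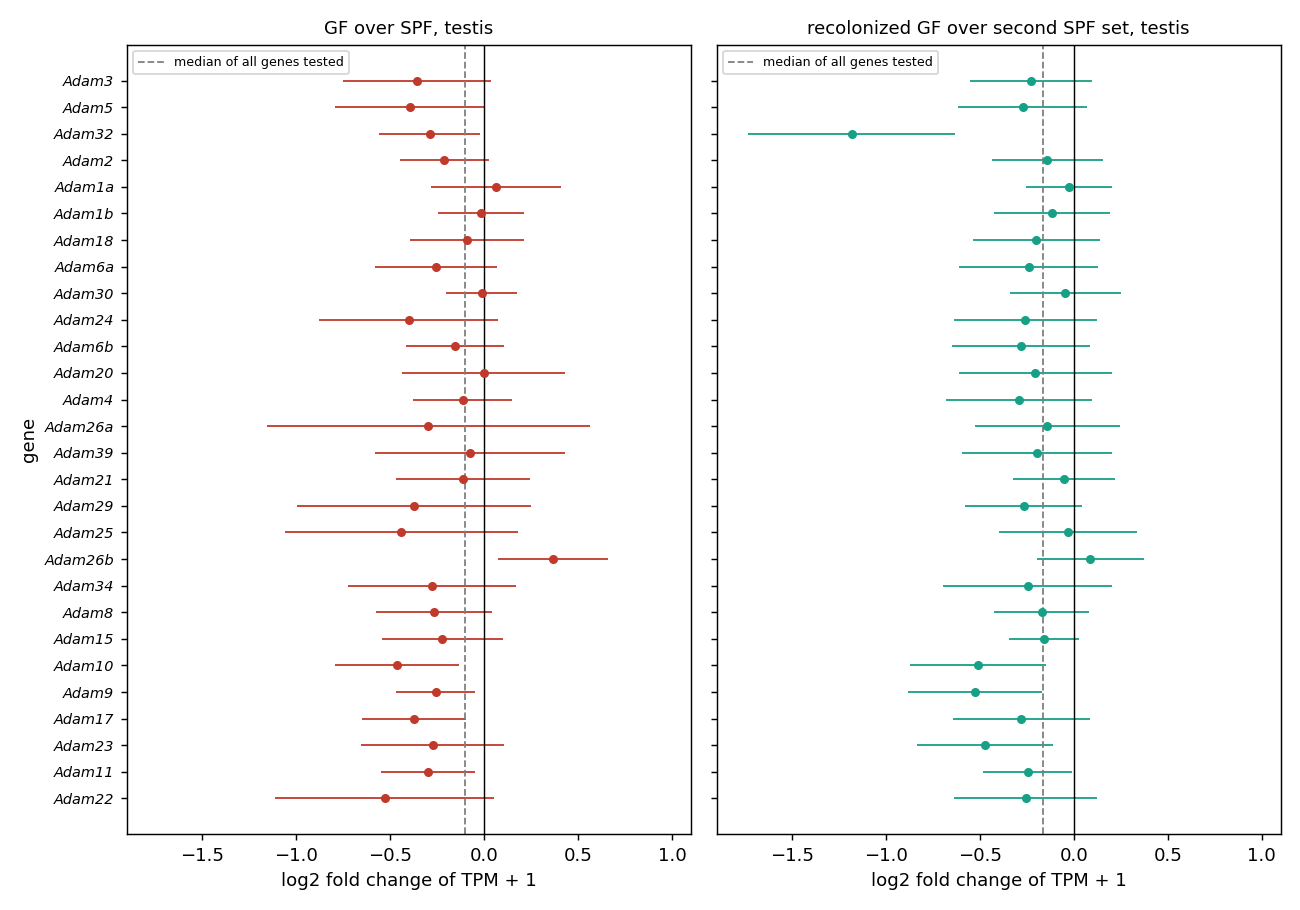
Log2 fold change of TPM + 1 with its 95% interval from limma for the 28 tested ADAM genes, in GF over SPF testis (left) and in recolonized GF over second-set SPF testis (right), with a dashed line at the median of all genes tested. Adam32 stands apart in the right panel at -1.18 and is at -0.29 in the left.

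In caput, Adam28 had 345, 355, 334, 295, 330 and 337 TPM in GF mice (lowest 295, median 336, highest 355), against 455, 469, 406 and 471 TPM in SPF mice. Every GF library was below every SPF library. The means were 333 ± 20.5 TPM in GF and 450 ± 30.6 TPM in SPF mice (SD, n = 6 and 4), with a log2 fold change of -0.44 ± 0.08 and a 95% interval of -0.60 to -0.27 (limma adjusted p = 0.0358). This passed the adjusted p and not the fold threshold, so that 0 of 9 tested members were called (0.348% of all genes) while 4 had an unadjusted p under 0.05 (16.8%), and lower values without overlap were found for 1 of 9 members, Adam28 (2.48% of all genes). Over 15 alternative fits the fold change ran from -0.48 to -0.40 and the adjusted p from 0.034 to 0.14, and it was at most 0.05 in 5.

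Adam28 was compared with the same SPF libraries in F1 and Rag2-/- mice. It had 265, 264 and 379 TPM in F1 caput, a log2 fold change of -0.59 ± 0.15 that missed the threshold (limma adjusted p = 0.0526) and passed it in 2 of 12 alternative fits. In Rag2-/- caput it had 622 and 626 TPM, a log2 fold change of 0.47 ± 0.11 (limma adjusted p = 0.163). All 3 F1 libraries were below the range of this first SPF set, and both Rag2-/- libraries were above it. Both Rag2-/- values lay within the range of the second SPF set, 492 to 649 TPM. In recolonized GF caput Adam28 had 727, 482 and 385 TPM, against 590, 496, 497, 649 and 492 TPM in the second SPF set, and the groups overlapped (-0.08 ± 0.19, limma adjusted p = 0.941).

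Adam7 had the same order of groups in caput with smaller differences. It had 658, 639, 698, 666, 811 and 802 TPM in GF caput, against 978, 856, 776 and 896 TPM in SPF caput (-0.30 ± 0.10, limma adjusted p = 0.17). In F1 caput it had 615, 618 and 725 TPM (-0.42 ± 0.11, limma adjusted p = 0.0624), and in Rag2-/- caput 1241 and 1016 TPM (0.36 ± 0.14, limma adjusted p = 0.229). GF libraries overlapped with the first SPF set, F1 libraries were all lower than that set, and Rag2-/- libraries were all higher. The Rag2-/- value of 1241 TPM lay within the range of the second SPF set, 1167 to 1656 TPM, and that of 1016 TPM lay below it. In recolonized GF caput Adam7 had 1933, 1556 and 1063 TPM, against 1374, 1269, 1167, 1656 and 1280 TPM in the second SPF set (0.14 ± 0.19, limma adjusted p = 0.885), and the groups overlapped.

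**Figure D4:**
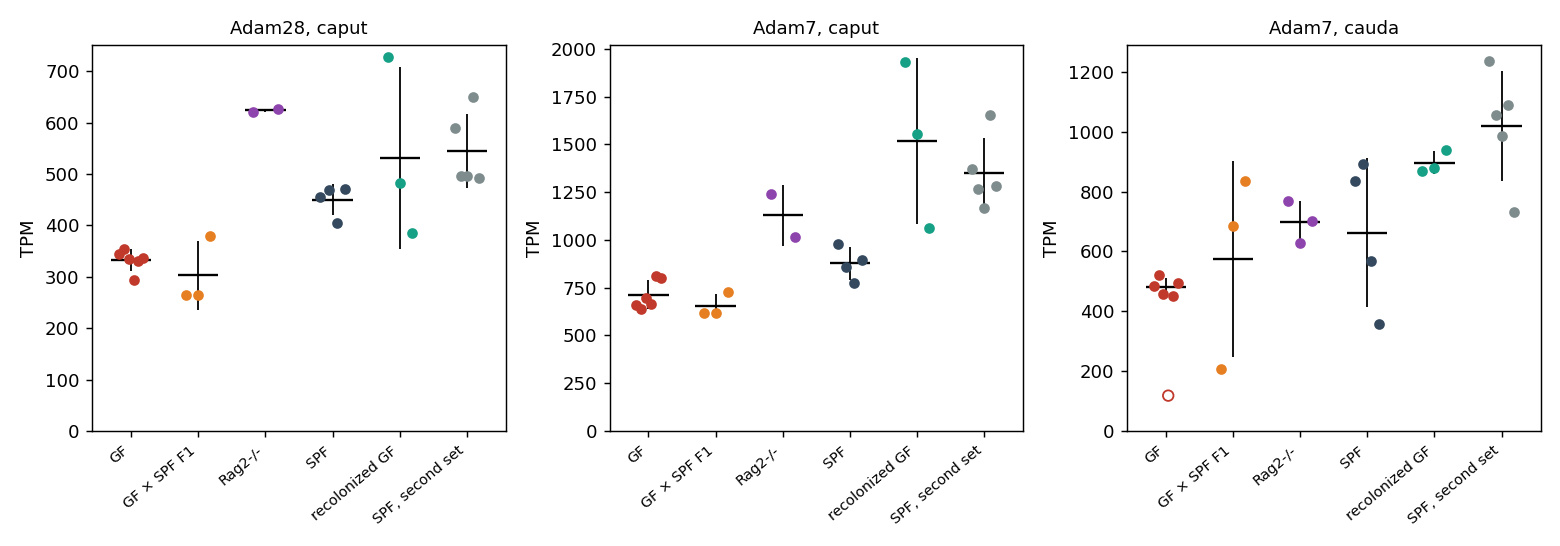
Adam28 in caput, Adam7 in caput and Adam7 in cauda, in TPM, with 1 point per library, a line at the group mean and a bar of 1 SD. The open circle is the swollen GF cauda, which is not in the mean. In caput the GF and F1 means are below and the Rag2-/- means above the means of the first SPF set for both genes.

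For the F1 comparison none of 9 tested members was called in caput (2.72% of all genes), 4 had an unadjusted p under 0.05 (28.9%), and lower values without overlap were found for Adam7 and Adam28 (6.11% of all genes), while the median of all genes was shifted by 0.11 on the log2 scale. For Rag2-/- caput none of 9 was called (0.159% of all genes), 4 had an unadjusted p under 0.05 (18.3%), and Adam7, Adam9, Adam10 and Adam28 were higher without overlap (18.4% of all genes, with 2 libraries against 4). The same 4 members were higher without overlap in caput of the second SPF set than in the first (30.4% of all genes). Whether the Rag2-/- values share the difference between the SPF sets was not tested. For recolonized GF caput none of 8 was called (0.175% of all genes), and 0 had an unadjusted p under 0.05 (8.14%). Markers of other cell types were read in the same libraries. The summed level of 12 macrophage markers was 918 to 1086 TPM in GF caput, 1049 to 1255 TPM in F1 caput and 727 to 778 TPM in Rag2-/- caput, against 717 to 845 TPM in SPF caput. Markers of red blood cells summed to 414 to 775 TPM in GF caput, 842 to 1372 TPM in F1 caput and 182 to 211 TPM in Rag2-/- caput, against 148 to 266 TPM in SPF caput, and the 13 caput epithelium markers to 93608 to 125131 TPM in GF caput, 97662 to 110848 TPM in F1 caput and 121734 to 124355 TPM in Rag2-/- caput, against 106686 to 126693 TPM in SPF caput. For all 3 lists the Rag2-/- sums lay within the SPF range, and the epithelium sums of GF and F1 caput overlapped with it. Of the markers tested, 0 of 11 macrophage and 1 of 4 red blood cell markers were called higher in GF caput, 3 of 11 and 4 of 4 in F1 caput, and 0 of 11 and 0 of 3 in Rag2-/- caput. The 8 fibroblast markers had a median log2 fold change of -0.52 in GF caput (none positive, none called), -0.17 in F1 caput (1 called lower) and -0.43 in Rag2-/- caput (1 called lower). The part of these cells in the Adam7 and Adam28 values was not tested.

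Adam15, the third most abundant member of caput, had 75.2, 75.3, 69.5, 73.2, 67.9 and 68.5 TPM in GF caput, against 63.0, 68.6, 71.8 and 68.6 TPM in SPF caput (0.07 ± 0.07, limma adjusted p = 0.599). The groups overlapped. Adam10 had 7.39, 7.06, 5.91, 7.29, 6.08 and 4.99 TPM in GF caput, against 10.6, 5.91, 6.33 and 8.28 TPM in SPF caput (-0.22 ± 0.15, limma adjusted p = 0.48), again with overlap.

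In cauda, no member was called in any comparison between groups of mice. Limma called 0 of 11 tested members in GF cauda (0.144% of all genes), 0 of 11 in F1 cauda (0.188%), 0 of 9 in Rag2-/- cauda (0.130%) and 0 of 11 in recolonized GF cauda (0.323%). An unadjusted p under 0.05 was found for 3 members in GF cauda (15.7% of all genes), 4 in F1 cauda (23.5%), 0 in Rag2-/- cauda (10.5%) and 0 in recolonized GF cauda (15.7%). Adam7 had 486, 520, 457, 451 and 495 TPM in GF cauda, against 836, 891, 568 and 357 TPM in SPF cauda (-0.37 ± 0.24, limma adjusted p = 0.512). The 5 GF libraries were close together and lay within the wider SPF range. It had 206, 685 and 834 TPM in F1 cauda and 768, 627 and 700 TPM in Rag2-/- cauda, all overlapping with SPF cauda. In recolonized GF cauda Adam7 had 868, 879 and 940 TPM, against 1235, 1055, 986, 1088 and 732 TPM in the second SPF set (-0.17 ± 0.16, limma adjusted p = 0.633). Adam10, the third most abundant member of SPF cauda, had 8.54, 9.12, 9.92, 4.46 and 6.61 TPM in GF cauda, against 14.1, 9.33, 8.08 and 3.88 TPM in SPF cauda (-0.11 ± 0.32, limma adjusted p = 0.929), and the groups overlapped.

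Adam8, a sheddase gene of leukocytes chosen for description after its values were seen, had the largest log2 fold change of any member in GF cauda. It had 36.9, 7.72, 11.7, 0.09 and 21.2 TPM in GF cauda, against 1.14, 0.66, 0.70 and 0.63 TPM in SPF cauda. Of the 5 GF libraries, 4 were above every SPF library and 1 (replicate 5) was below all of them. The log2 fold change was 2.50 ± 0.84 (limma adjusted p = 0.206). Without GF cauda replicate 5 it was 3.30. Leaving out that library added Adam8 to the calls and raised those over all genes from 18 to 304. Adam8 passed the filter on low values through the GF libraries, so its values here are given as a description. The GF effect in cauda minus that in caput was 2.76 ± 0.87 for Adam8 in 1 fit of both regions (limma adjusted p = 0.210). Without GF cauda replicate 5 it was 3.56, and the calls over all genes rose from 11 to 309 and then held Adam8. None of 11 members was called in the fit with that library (0.0881% of all genes). There 4 had an unadjusted p under 0.05 (11.5%) and the median of all genes was 0.13.

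Macrophage markers moved with Adam8. All 12 tested markers had a positive log2 fold change in GF cauda with a median of 1.24, and none was called. Their summed level was 4332, 1336, 1638, 549 and 4648 TPM in GF cauda, in the order given for Adam8, against 709, 333, 588 and 680 TPM in SPF cauda, so that the library with the lowest Adam8 value also had the lowest sum of the GF libraries. Over 23 cauda libraries without the swollen cauda, the log2 level of Adam8 and the mean log2 level of these markers had a Pearson correlation of 0.917 and a Spearman correlation of 0.823, and over the 23 caput libraries of 0.558 and 0.460, as descriptions over libraries of several groups. Neutrophil markers had a Pearson correlation of -0.022 and a Spearman correlation of 0.197 with Adam8 over the same 23 cauda libraries. The part of macrophage number in the Adam8 value was not tested.

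**Figure D5:**
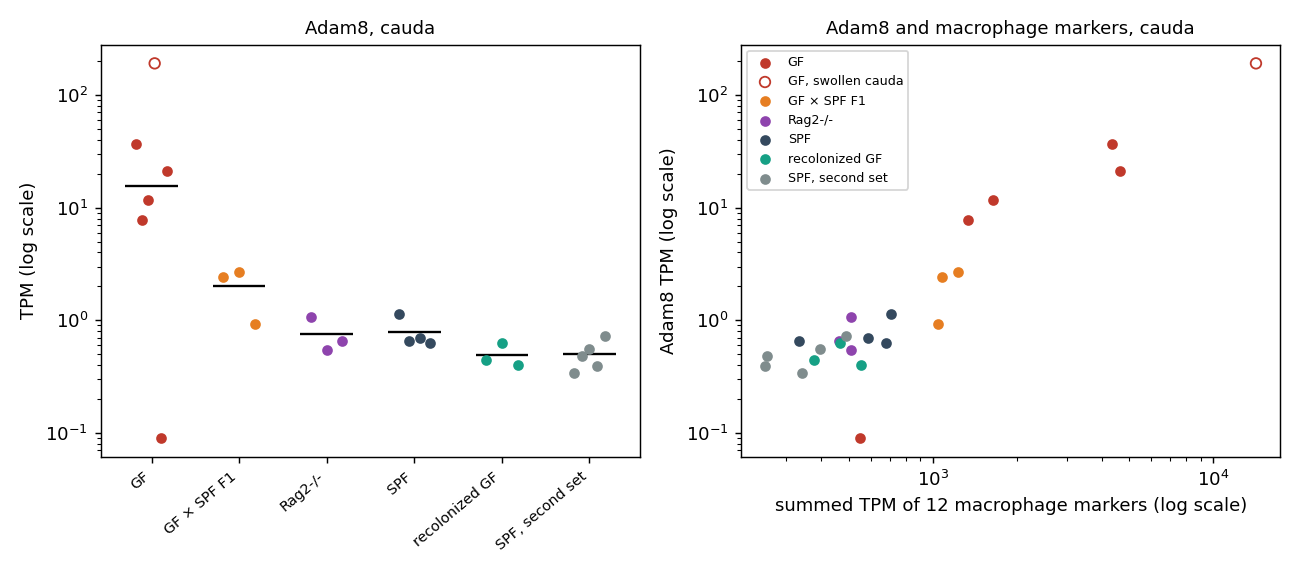
Adam8 in TPM in each cauda library by group, with a line at the group mean (left), and against the summed TPM of 12 macrophage markers in the same libraries (right), on log axes. The open circle is the swollen GF cauda at 190 TPM, which is not in the mean, and the GF library with the lowest marker sum has 0.09 TPM of Adam8.

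In F1 cauda Adam11 and Adam33 were higher without overlap (22.0% of all genes were), where the median of all genes was shifted by 0.28 on the log2 scale. Adam33, a sheddase gene of mesenchymal cells chosen after its values were seen, had 1.44, 3.78 and 2.78 TPM in F1 cauda, against 1.04, 0.56, 0.94 and 0.57 TPM in SPF cauda (1.00 ± 0.25, limma adjusted p = 0.0959), and it passed the filter on low values through the F1 libraries. Adam11, a neural member also chosen after its values were seen, had 2.02, 4.53 and 2.64 TPM, against 1.19, 0.97, 1.16 and 1.38 TPM (0.86 ± 0.22, limma adjusted p = 0.0985). Markers of several cell types were also higher in these libraries, each with a positive log2 fold change and none called. They were 8 of 8 fibroblast markers with a median of 0.64, 12 of 12 macrophage markers (0.90), 6 of 6 endothelium markers (0.66), 6 of 6 smooth muscle markers (0.52) and the 15 spermatid and sperm markers above. Red blood cell markers had 2 of 4 called higher. The part of these cells in the Adam11 and Adam33 values was not tested.

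The genes that act on or with the ADAM proteins were read from 4 lists. The maturation list held 18 chaperones, proteases and other genes known in the mouse to be needed for, or linked to, ADAM proteins on sperm. In SPF testis over caput 13 of 18 were called higher (52.9% of all genes) and 3 lower (27.4%), with a median log2 fold change of 6.00, against 0.77 over all genes. Of the 18, 9 averaged under 1 TPM in testis or in caput and passed the filter on low values through the other tissue. In cauda over caput, 2 of 7 tested were called higher, the endoplasmic reticulum chaperones Calr3 and Canx (21.1% of all genes), and 4 lower, Calr, Tpst2, Ace and Rnase10 (18.4%). Tpst2, a protein tyrosine sulfotransferase, averaged 54.9 TPM in SPF cauda against 1046 TPM in SPF caput (-4.23 ± 0.10, limma adjusted p = 2.73e-09), and Rnase10, without which Adam3 is lost from mouse sperm, averaged 1.82 TPM in SPF cauda against 4016 TPM in SPF caput (-10.48 ± 0.12, limma adjusted p = 4.86e-11).

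Between groups of mice 2 genes of these lists were called. Calr3, a testis chaperone of Adam3, rose in recolonized GF caput at a mean of 3.34 TPM against 1.84 TPM in the second SPF set (0.62 ± 0.09, limma adjusted p = 0.0423). It was 1 of 9 maturation genes tested there (0.119% of all genes called higher). Cdh1, an Adam10 substrate, rose in F1 caput at a mean of 86.4 TPM against 49.9 TPM in SPF caput (0.80 ± 0.15, limma adjusted p = 0.0356). It was 1 of 17 Adam10 and Adam17 substrates tested there (2.14% of all genes called higher). Of the 18 regulators of Adam10 and Adam17 (tetraspanins, rhomboid-like proteins, convertases and inhibitors) 15 or 16 were tested in each comparison between groups of mice. Of the 4 LGI ligands 1 or 2 were tested. None of those tested was called, where 0.0423% to 2.72% of all genes were called. The regulators tested numbered 16 in GF caput with a median log2 fold change of -0.01, against -0.03 over all genes.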

How the data were processed

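Stranded libraries of RNA captured by its poly(A) tail were sequenced in pairs by the authors, who aligned the reads to mm10 and quantified genes with RSEM in Via Foundry (versions not given in the sources used here). The deposited values are TPM of 23845 genes in 62 libraries. The study's own calls used DESeq2 on raw counts, which were not used here, so depth is unknown and only the spread between replicates measures precision. No pair of libraries was identical (highest correlation 0.996).

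For each comparison limma 3.58.1 (R 4.3.3) was run on log2(TPM + 1), leaving out genes averaging under 1 TPM, with Benjamini-Hochberg adjustment over every gene kept, after a check on simulated data. A call required a fold of 1.5 or more together with an adjusted p no higher than 0.05. Fold changes on this scale understate the change of low genes. Errors of fold changes are SE and others SD. Only the groups compared entered a fit, and the interaction of GF with region was fitted over GF and SPF libraries of caput and cauda. There and between tissues, libraries were taken as independent because the labels do not tie them to an animal. GF, F1 and Rag2-/- comparisons share SPF libraries.

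Alternatives were a pseudocount of 0.1, no filter, median-of-ratios scaling, a replicate block, all groups in 1 fit and leaving out each library. Coding sequences of GENCODE M21 (GRCm38, the coordinates of mm10) were translated and aligned with MAFFT 7.526 to place the zinc site, and all 33 symbols matched RefSeq. Members, roles and lists were chosen with earlier results of these data known. The members chosen to be given by library were those called between groups of mice, the 3 most abundant of each SPF tissue, and Adam2, Adam3, Adam7 and Adam28. Some of their groups are given by range or median alone.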

Additional observations from a re-analysis of the deposited data

Results flagged for a closer look

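Among the 8 members described by library, 39 groups of 4 to 6 libraries were searched for a library far from the rest. Only groups with a library of at least 1 TPM were searched, and 5 such outlying libraries were found. Adam28 in GF cauda and Adam3 in second-set SPF caput entered the search only through the library that was found. The swollen cauda was known beforehand, so the 5 are not set against a chance rate. In the swollen GF cauda (replicate 4) Adam15 was at 81.4 TPM, against 33.9 to 44.5 TPM in the other GF cauda libraries, and Adam7 was at 118 TPM, against 451 to 520 TPM. Adam28 was at 1.53 TPM in GF cauda replicate 3 and at 0.22 TPM or less in the others. Adam3 was at 1.18 TPM in caput replicate 4 of the second SPF set and at 0.58 TPM or less in the others. Adam32 was lowest, at 217 TPM, in testis replicate 4 of the second SPF set, where the other 4 libraries had 262 to 277 TPM.

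The swollen GF cauda entered no comparison. In it 10 members with at least 1 TPM were above every SPF cauda library. The share of all genes above every SPF cauda library was not counted, so this number has no background. Adam8 was at 190 TPM (at most 1.14 TPM in SPF cauda), Adam15 at 81.4 TPM (at most 44.3 TPM), Adam17 at 18.4 TPM (at most 6.51 TPM), Adam10 at 17.0 TPM (at most 14.1 TPM) and Adam9 at 12.4 TPM (at most 9.16 TPM). Adam19 was at 6.87 TPM (at most 3.07 TPM), Adam33 at 2.47 TPM (at most 1.04 TPM), Adam12 at 1.78 TPM (at most 0.19 TPM), Adam11 at 1.74 TPM (at most 1.38 TPM) and Adam1a at 1.59 TPM (at most 1.41 TPM). The 12 macrophage markers summed to 14180 TPM in this library, against 333 to 709 TPM in SPF cauda. It is 1 library, so the differences have no replicate check, and the part of macrophages was not tested.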

How the results depend on the processing

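No fold change of a member that was called reversed its sign under any alternative. Of 233 counts of called members 214 stayed within 1.5 times their value, and counts that stayed at 0 are among these. Between groups of mice the main count was 0 except in recolonized GF testis, where most alternatives lost the call of Adam32. Whether the replicate numbers of the labels pair the libraries is unknown. In no comparison did all same-numbered libraries correlate above 0.1, which cannot exclude pairing with so few libraries. With the replicate block the count of called members was 1 in GF cauda (Adam8) and 0 in recolonized GF testis. With all groups in 1 fit it was 1 in GF cauda (Adam8), 1 in F1 caput (Adam28) and 3 in F1 cauda (Adam11, Adam23 and Adam33). Scaling by median of ratios gave 1 in F1 caput (Adam28) and 0 in recolonized GF testis, where a pseudocount of 0.1 and no filter also gave 0. Leaving out 1 library gave 0 to 1 in GF cauda and for the interaction of GF with region, 0 to 3 in recolonized GF testis, 27 to 29 for testis over caput and 24 to 26 for testis over cauda in SPF mice. All genes called in GF cauda numbered 18, against 265 with the block and 413 with all groups in 1 fit, and in F1 cauda 24, against 1390 with all groups. Causes were not tested. Unknown read depth limits the reading of members below 1 TPM, and groups of 2 or 3 libraries limit the tests.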
